A study of Equus caballus with 12 samples.

Results

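The miR-23, miR-27 and miR-24 clusters were examined in the heart, lung and liver of the horse. Their members were taken as every known horse miRNA in the table whose name is eca-miR- followed by the number 23, 24 or 27 with any letter or arm suffix. This gave 5 entries of 294 known miRNAs and of 629 entries in all: miR-23a, miR-23b, miR-24, miR-27a and miR-27b. Of these, miR-23a and miR-27a make up the a cluster, miR-23b and miR-27b make up the b cluster, and miR-24 is made by both. The small RNA came from 4 healthy stallions of the Polish cold-blooded type, aged 1 to 2 years and given by the numbers 27, 30, 32 and 34. From each horse the left ventricle of the heart, the caudal lobe of the right lung and the right lobe of the liver were sampled, which gave 12 libraries and 4 per tissue, with no treatment and no genetic change in any group. The question put to these members was how their levels, and the balance of the a against the b cluster, differed between the tissues.

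MicroRNAs guide Argonaute proteins to messenger RNAs through the seed, the bases 2 to 8 of the mature strand, and lower the output of those messengers. A hairpin of the miR-23, the miR-27 and the miR-24 family lies side by side in each cluster and is cut from a common primary transcript, so that the members of a cluster can be made together and still differ in level through processing and decay. The a and b forms of miR-23, and likewise those of miR-27, are near-identical and share their seed. miR-23 is known as a repressor of glutaminase, miR-27 as a repressor of the adipogenic receptor PPARG and of other genes of lipid handling, and miR-24 as a regulator of the cell cycle and of endothelial survival in the heart. The clusters are well known in endothelial cells, where they bear on vessel growth. In the RefSeq annotation of the horse (assembly TB-T2T), the hairpin genes of the a cluster followed each other as MIR23A, MIR27A and MIR24-1, with MIR8992 as the next gene. Those of the b cluster followed each other as MIR24-2, MIR27B and MIR23B within the span of AOPEP, an aminopeptidase gene. The single entry for miR-24 could not be divided between its hairpins.

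The table also holds 335 entries that are named by their sequence and not by a miRNA, and these were searched for the seeds of the families at bases 2 to 8. The motifs were ucacagu for miR-27, ucacauu for miR-23 and ggcucag for miR-24, read in the sense of the RNA only. The miR-27 motif stood there in 3 of the 335 entries (0.896%), the miR-24 motif in 1 (0.299%) and the miR-23 motif in 0. Anywhere in the sequence, the motif stood in 6 entries for miR-27, 2 for miR-24 and 0 for miR-23. The 4 sequences are shown because they are what the table itself holds of these seeds at bases 2 to 8. Each is given 5′ to 3′ with bases 2 to 8 in capitals.
miR-27 seed, entry of 19 bases: uUCACAGUgguuaaguuca
miR-27 seed, entry of 21 bases: cUCACAGUggcuagguucuga
miR-27 seed, entry of 18 bases: aUCACAGUggcuaaguaa
miR-24 seed, entry of 20 bases: aGGCUCAGuucagcaggaag
From which hairpin these entries came was not determined. Since the a and b forms of a family are so alike, the counting may have placed some reads of a form under the other.

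Values are normalized counts, that is, read counts divided by the size factor the authors set for each library; each counted read comes from a mature miRNA of near-equal length. All values of a library were whole multiples (within 0.01) of its lowest value above 0 divided by 6, the authors' minimum read count. By that step the heart libraries held 8113895 to 9355513 reads, those of lung 3536536 to 7560746 and those of liver 3066869 to 8595569. The members rested on 2252 to 268377 reads in a library, so that counting error was small beside the spread between horses. Adapter ligation favours some sequences over others, so that levels of different miRNAs are compared as read in these libraries. The tissues bore their labels: the 6 muscle miRNAs took 52.9 to 62.0% of the known miRNA counts in heart, the 3 hepatocyte miRNAs 21.7 to 25.1% in liver, and the 6 epithelial and 3 multiciliated miRNAs 1.41 to 1.90% and 0.395 to 1.34% in lung. Since miR-1 alone took 43.2 to 51.7% of the heart counts, the scale set between heart and the other tissues carries weight. Values are on the deposited scale unless stated, and where equal totals changed a call of a member, that result is given too. Libraries of bulk tissue hold all its cells, so that fewer cells of a type and less RNA per cell cannot be told apart.

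On the deposited scale, all 5 members were lowest in liver. In heart they stood 2.49-fold to 5.49-fold above liver and in lung 3.27-fold to 5.70-fold above liver, as ratios of mean normalized counts. On that scale heart and lung differed less, and in opposite directions for the forms of miR-27. The a forms were read higher in lung, and miR-27b was read higher in heart. When libraries were set to equal totals, all 5 members were higher in lung than in heart. The log2 fold changes then ran from 0.64 (miR-27b) to 2.29 (miR-23a). Those of heart versus liver then ran from 0.11 (miR-27a) to 1.25 (miR-27b). Of the known miRNA counts, the 5 members together took 2.52 to 3.99% in heart, 1.32 to 1.99% in liver and 6.19 to 8.03% in lung.

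**Figure D1:**
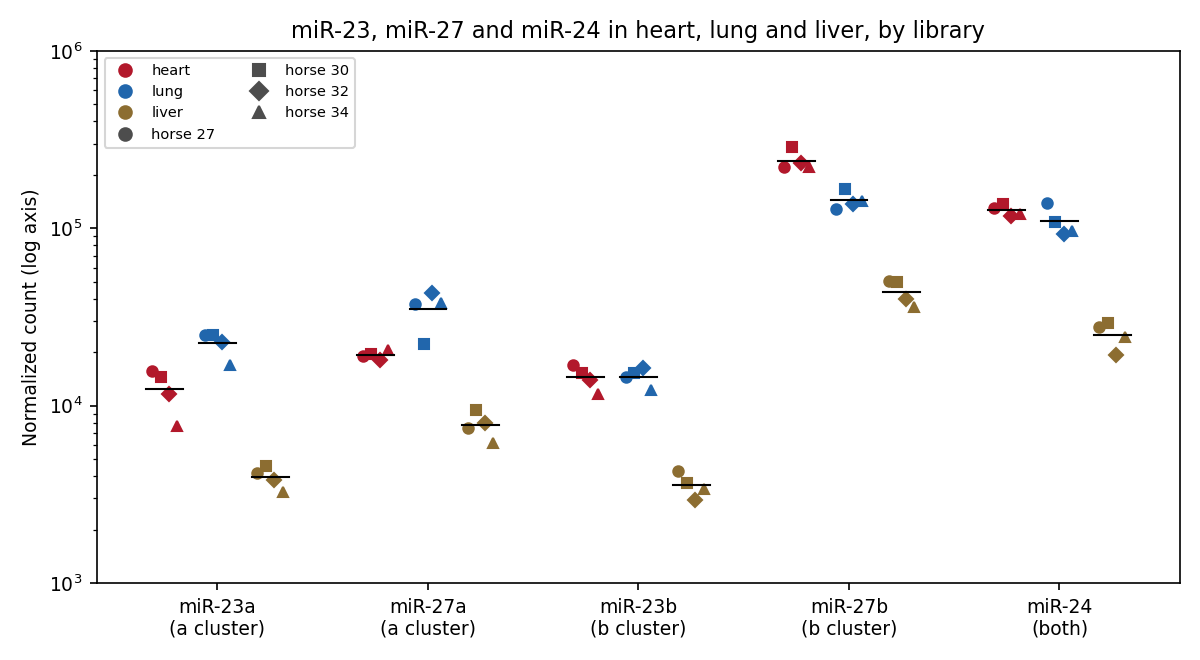
Normalized count (log axis) of miR-23a, miR-27a, miR-23b, miR-27b and miR-24 in each of the 12 libraries; colours give the tissue, symbols the horse, and black bars the mean of 4 libraries. Every liver value of a member lies below all its heart and lung values, and miR-27b and miR-24 are the highest members in all tissues.

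eca-miR-27b, the main member of the b cluster, was the most abundant of the 5 in 11 of 12 libraries. Its normalized counts were 219974, 287748, 234479.7 and 220525 in the hearts of horses 27, 30, 32 and 34. In the lungs of the same horses they were 128949.6, 165932, 136544 and 142257. In the livers they were 50245, 49653, 39724 and 35758. On the deposited scale the 3 tissues formed separate bands, with heart at the top, then lung, then liver. As a share of the known miRNA counts, lung (2.72 to 3.77%) lay above heart (1.46 to 2.41%), and liver (0.646 to 1.03%) was again lowest. Among the known miRNAs of a library, miR-27b ranked between place 7 and 12 in heart, 5 and 10 in lung, and 16 and 23 in liver. Against liver, the log2 fold change was 2.46 in heart (standard error 0.17, adjusted p = 1.36e-07 from limma) and 1.72 in lung (standard error 0.17, adjusted p = 4.03e-06, limma).

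eca-miR-24 came second, and was above miR-27b in the lung of horse 27 only. Its normalized counts were 130201, 136535, 116877 and 120763 in the hearts of horses 27, 30, 32 and 34. The lungs gave 138728, 108507, 92915 and 96352. The livers gave 27794, 29058, 19321 and 24349.6. Heart and lung overlapped on this scale, and both lay above liver in all 4 horses. As a share of the known miRNA counts, lung (1.85 to 2.92%) lay above heart (0.798 to 1.29%). The log2 fold change against liver was 2.34 in heart (standard error 0.18, adjusted p = 3.95e-07, limma) and 2.12 in lung (standard error 0.18, adjusted p = 1.88e-06, limma).

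eca-miR-27a, the a form of miR-27, was read at 19113, 19442, 18037 and 20641 normalized counts in the 4 hearts, in the order of horses 27, 30, 32 and 34. The spread there was narrow, with a coefficient of variation of 5.55%. The lungs gave 37321, 22248, 42895 and 38028. The lung of horse 30 stood well below the others of its tissue and just above the highest heart. The livers gave 7485, 9457, 7986 and 6140.2. The log2 fold change against liver was 1.33 in heart (standard error 0.22, adjusted p = 0.000250, limma), the smallest of the 5 members there, and 2.15 in lung (standard error 0.22, adjusted p = 5.54e-06, limma). With equal totals the value in heart versus liver was 0.11 (adjusted p = 0.705, limma) and was not called.

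miR-23a and miR-23b, the forms of miR-23, had the lowest tissue means of the 5. eca-miR-23a was read at 15666, 14572, 11612 and 7677 normalized counts in the hearts of horses 27, 30, 32 and 34, at 25016, 25159.7, 22930.2 and 16968 in their lungs, and at 4166, 4546, 3804 and 3280.1 in their livers. On the deposited scale the tissues did not overlap, with lung at the top and liver lowest, and horse 34 gave the lowest value in each of them. As a share of the known miRNA counts, heart (0.0507 to 0.155%) and liver (0.0593 to 0.0941%) overlapped for miR-23a. eca-miR-23b was read at 17032, 15282, 14017 and 11709 in the hearts, at 14469.9, 15327, 16212 and 12334 in the lungs, and at 4299, 3656, 2941 and 3384 in the livers. Heart and lung overlapped for miR-23b on the deposited scale, with means of 14510.2 ± 2239.6 and 14586 ± 1661 (SD, n = 4). As a share of the known miRNA counts, lung (0.305 to 0.348%) lay above heart (0.0774 to 0.169%). Against liver, the log2 fold change of miR-23a was 1.61 in heart (standard error 0.24, adjusted p = 0.000130, limma) and 2.50 in lung (standard error 0.24, adjusted p = 4.03e-06, limma). For miR-23b it was 2.02 in heart (standard error 0.18, adjusted p = 1.36e-06, limma) and 2.04 in lung (standard error 0.18, adjusted p = 2.40e-06, limma). With equal totals neither was called in heart versus liver, at 0.39 for miR-23a (adjusted p = 0.282, limma) and 0.81 for miR-23b (adjusted p = 0.00733, limma).

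In heart versus liver, 5 of 5 members were called higher in heart (adjusted p below 0.05 and a change of 1 or more on the log2 scale), where 51 of the 256 known miRNAs tested (19.9%) were. Their median log2 fold change was 2.02, against -0.23 over all miRNAs tested, and by size of the change they took places between 28 and 57 of 256. All heart values of each member lay above all its liver values, as for 19.9% of all tested. These calls depended on the scale. When each library was set to the same total of known miRNAs (CPM), the median of all miRNAs moved by -1.16 on the log2 scale and 2 of 5 members stayed called, miR-27b at 1.25 and miR-24 at 1.13, against 10.2% of all tested. Over all 256 miRNAs, 26 were then called higher and 138 lower in heart, where 51 and 69 were on the deposited scale. The remaining log2 fold changes were then 0.81 for miR-23b (adjusted p = 0.00733, limma), 0.39 for miR-23a (adjusted p = 0.282) and 0.11 for miR-27a (adjusted p = 0.705), whose shares of 0.136 to 0.190% in heart and 0.111 to 0.196% in liver overlapped. Under TMM scaling, which trims the miRNAs that change most and moved the median by -0.15, the 5 lay between 1.18 and 2.31 and all were called, beside 18.8% of all tested.

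In lung versus liver, 5 of 5 members were called higher in lung, beside 64 of 256 tested (25.0%). Their median log2 fold change was 2.12, against 0.08 over all tested, and they took places between 30 and 46 of 256. All lung values of each member lay above all its liver values, which held for 25.8% of all tested. This result did not turn on the scale: the 5 log2 fold changes ran from 1.72 to 2.50 as deposited, from 1.74 to 2.53 with TMM and from 1.89 to 2.68 with equal totals, which moved the median by 0.15, and 5 of 5 were called under each. Of all tested, 25.4% were called higher in lung with TMM and 27.0% with equal totals. The comparison shares its liver libraries with heart versus liver, so that the results against liver are not independent of each other.

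In lung versus heart, 0 of 5 members were called in either direction, where 19.5% of the 256 tested were called higher in lung and 19.1% higher in heart. Without the fold minimum, miR-23a and miR-27a passed the adjusted p as higher in lung (24.2% of all tested) and miR-27b as higher in heart (21.9% of all tested). miR-23a had a log2 fold change of 0.90 (standard error 0.24, adjusted p = 0.00924, limma) and miR-27a of 0.82 (standard error 0.22, adjusted p = 0.00855), each higher in lung in 4 of 4 horses. miR-27b had a log2 fold change of -0.74 (standard error 0.17, adjusted p = 0.00311) and was lower in lung in 4 of 4 horses, a direction that turned with equal totals. For these 3 members the values of the tissues did not overlap: all lung values were above all heart values for 2 members and 22.7% of all tested, and the reverse held for 1 member and 21.9% of all tested. miR-23b at 0.01 (adjusted p = 0.992) and miR-24 at -0.22 (adjusted p = 0.325) did not pass. The unadjusted p was under 0.05 for the same 3 of 5.

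The direction in lung versus heart held for the a forms under each scaling but not for miR-27b and miR-24. With equal totals the median of all miRNAs moved by 1.24 on the log2 scale, miR-27b turned to 0.64 and miR-24 to 1.16, and 4 of 5 members were called higher in lung, beside 48.4% of all tested (124 higher and 16 lower in lung, against 50 and 49 as deposited). Measured against that moved median, miR-23a (2.29), miR-27a (2.21) and miR-23b (1.40) lay above it, and miR-24 and miR-27b below it. With TMM, which moved the median by 0.11, 1 member was called higher in lung (21.5% of all tested), miR-23a at 1.07, while miR-27a stood at 0.99 and miR-27b at -0.57. As deposited, 1 member passed the fold minimum without horse 30 or the lung of horse 30 (miR-27a, 1.03 each), and 1 without the heart of horse 27 or the lung of horse 34 (miR-23a, 1.03 each).

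**Figure D2:**
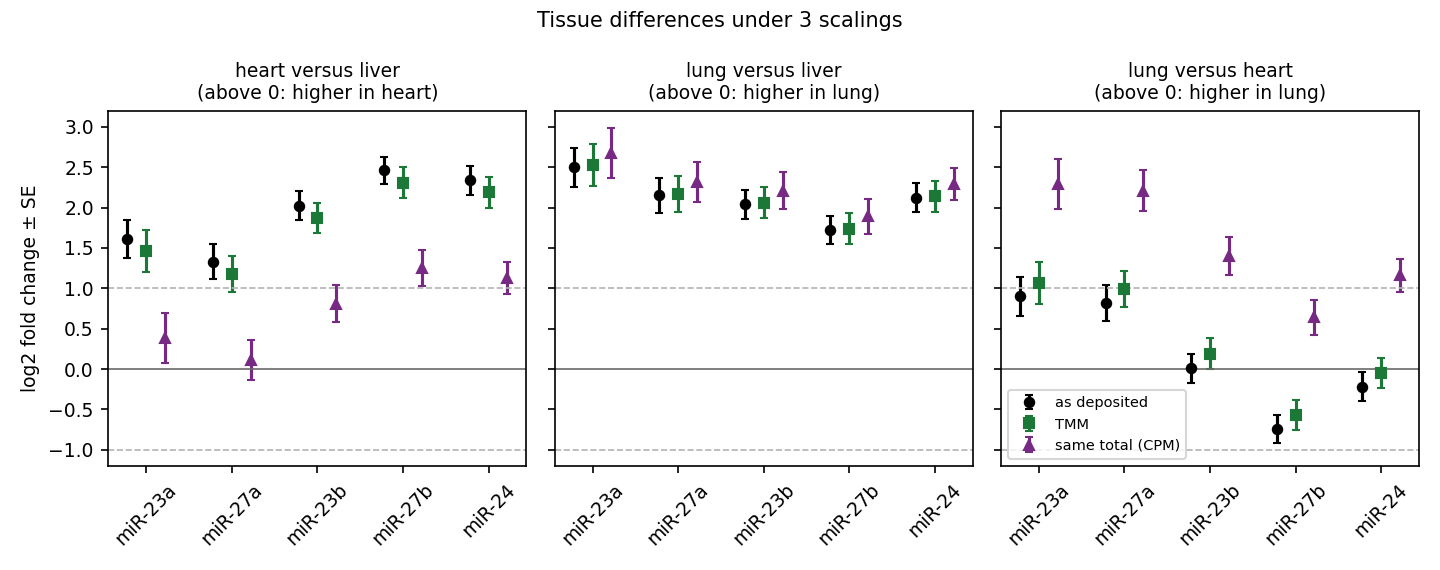
log2 fold change ± standard error from limma of the 5 members in heart versus liver, lung versus liver and lung versus heart, with values as deposited, with TMM scaling and with equal totals (CPM); dashed lines mark the fold minimum. Lung versus liver hardly moves with the scale, whereas with equal totals the heart versus liver values fall and miR-27b turns from -0.74 to 0.64 in lung versus heart.

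The balance of the b against the a cluster was followed through ratios within a library, which no size factor changes. miR-27b exceeded miR-27a in all 12 libraries. In the hearts of horses 27, 30, 32 and 34 it was 11.5, 14.8, 13.0 and 10.7 times as high. In the lungs it was 3.46, 7.46, 3.18 and 3.74 times as high, and in the livers 6.71, 5.25, 4.97 and 5.82 times. Heart therefore stood above both other tissues with no overlap, while the lung of horse 30 lay above all livers and the other 3 lungs lay below them. The mean log2 ratio was 3.63 ± 0.21 in heart, 2.07 ± 0.56 in lung and 2.50 ± 0.19 in liver (SD, n = 4).

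The difference in this log2 ratio was -1.57 in lung versus heart (standard error 0.30), a 2.96-fold change, and it was lower in lung in 4 of 4 horses. In heart versus liver it was 1.13 (standard error 0.14), a 2.19-fold change that was higher in heart in 4 of 4 horses. Both gave p = 0.0286 in an exact two-sided permutation test of 4 against 4 libraries, which is the smallest value that test allows, and an adjusted p of 0.0571 over the 12 ratio tests made. In lung versus liver the difference was -0.43 (standard error 0.30, exact permutation p = 0.171, adjusted p = 0.229), and -0.75 without horse 30.

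miR-23b and miR-23a were close to each other, and their order changed with the tissue. miR-23b was 1.09, 1.05, 1.21 and 1.53 times as high as miR-23a in the hearts of horses 27, 30, 32 and 34. In the lungs it was 0.578, 0.609, 0.707 and 0.727 times as high. In the livers it was 1.03, 0.804, 0.773 and 1.03 times as high. The b form thus led in 4 of 4 hearts and the a form in 4 of 4 lungs, and the tissues did not overlap, although the livers of horses 27 and 34 came close to the heart values. The mean log2 ratio was 0.27 ± 0.24 in heart, -0.62 ± 0.16 in lung and -0.15 ± 0.23 in liver (SD, n = 4). It differed by -0.88 in lung versus heart (standard error 0.15), by 0.42 in heart versus liver (standard error 0.17) and by -0.47 in lung versus liver (standard error 0.14). Each of these differences gave an exact two-sided permutation p of 0.0286 and an adjusted p of 0.0571.

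**Figure D3:**
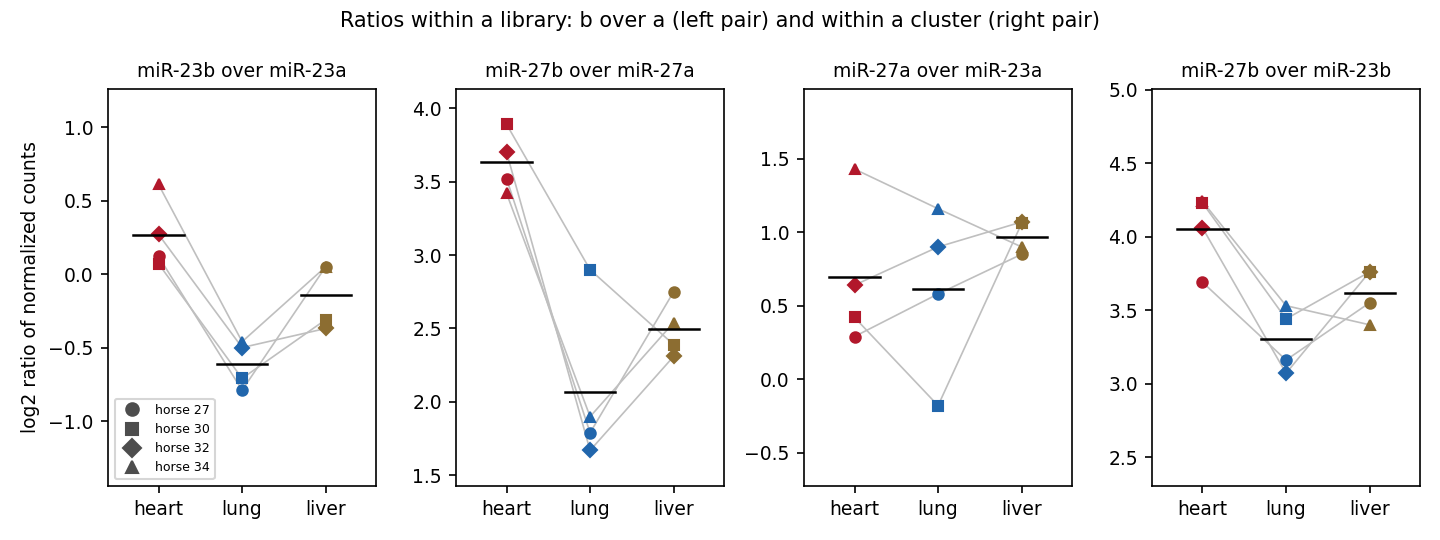
log2 ratio of normalized counts within each library for miR-23b over miR-23a, miR-27b over miR-27a, miR-27a over miR-23a and miR-27b over miR-23b; each symbol is a horse, grey lines join the tissues of a horse, black bars are means, and each panel spans the same range on its own axis. In the panels of b over a, all 4 hearts lie above all 4 lungs, while miR-27a over miR-23a overlaps between all tissues.

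Within the a cluster, the ratio of miR-27a over miR-23a was 1.22, 1.33, 1.55 and 2.69 in the hearts of horses 27, 30, 32 and 34. The lungs gave 1.49, 0.884, 1.87 and 2.24 and the livers 1.80, 2.08, 2.10 and 1.87. The tissues overlapped throughout, and the horses spread more in heart and lung (SD of the log2 ratio 0.51 and 0.58) than in liver (0.11). The differences in mean log2 ratio were -0.28 in heart versus liver (standard error 0.26), -0.35 in lung versus liver (standard error 0.30) and -0.07 in lung versus heart (standard error 0.39), with exact permutation p of 0.314, 0.314 and 0.886.

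Within the b cluster, miR-27b was 12.9, 18.8, 16.7 and 18.8 times as high as miR-23b in the hearts, 8.91, 10.8, 8.42 and 11.5 times in the lungs, and 11.7, 13.6, 13.5 and 10.6 times in the livers. All 4 hearts were above all 4 lungs, and liver overlapped both. The log2 ratio differed by -0.76 in lung versus heart (standard error 0.17, exact permutation p = 0.0286, adjusted p = 0.0571), by 0.44 in heart versus liver (standard error 0.16, exact permutation p = 0.0857) and by -0.32 in lung versus liver (standard error 0.14, exact permutation p = 0.114).

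Of the 12 ratio tests, 0 passed an adjusted p of 0.05, and 6 had an unadjusted p under 0.05. Those 6 had 0.0286, the smallest p the permutation of 4 against 4 libraries allows, which the adjustment turned into 0.0571. With only 6 of the 12 tests at that value, even full separation of the tissues could not pass. More tests at that value would have given a lower adjusted p. The count of 0 therefore does not measure how far the ratios differed. The ratios share members and the comparisons share libraries, so that the 12 tests are not independent of each other. Of the 4 ratios, 2 did not overlap in heart versus liver, 1 in lung versus liver and 3 in lung versus heart. Over all 32640 pairs of known miRNAs tested, 56.1%, 55.8% and 45.5% of the ratios did not overlap in these comparisons. Against that background, a ratio that separates a pair of tissues is not particular to these clusters. Exchanging tissues within horses cannot give a p below 0.125 with 4 horses, and it gave 0.125 for 7 of the 12.

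As a share of the a and b members without miR-24, the b cluster took 87.2, 89.9, 89.3 and 89.1% in the hearts of horses 27, 30, 32 and 34. It took 69.7, 79.3, 69.9 and 73.8% in the lungs and 82.4, 79.2, 78.3 and 80.6% in the livers. Heart was the highest in all 4 horses, and the lung of horse 30 lay within the range of liver. These shares rest mainly on miR-27b, which made up 58.2 ± 2.59% of the 5 members in heart, 44.2 ± 5.04% in lung and 52.0 ± 2.20% in liver (SD, n = 4). miR-24 kept a share of 30.6 ± 1.68%, 33.4 ± 4.66% and 29.8 ± 2.95% in the same order, and the ranges of the tissues overlapped. The a members together made up 7.69 ± 0.655% in heart, 17.8 ± 2.90% in lung and 14.0 ± 1.63% in liver.

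**Figure D4:**
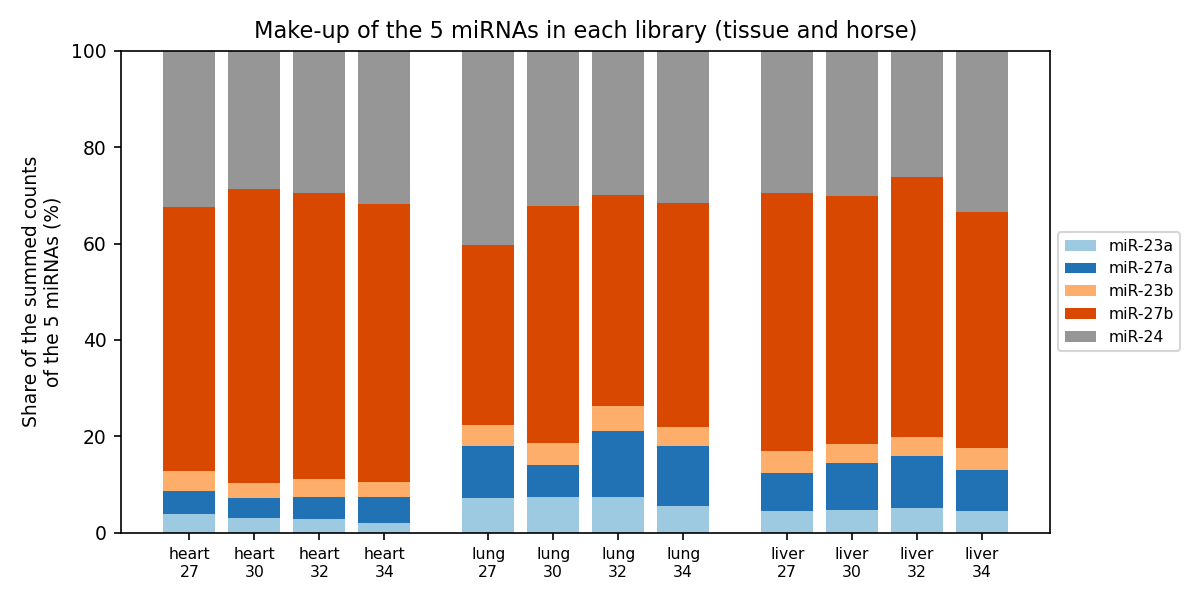
Share (%) of miR-23a, miR-27a, miR-23b, miR-27b and miR-24 in the summed normalized counts of these 5 miRNAs, 1 bar per library, named by tissue and horse. The a cluster (blue) takes 7.18 to 8.65% in heart and 14.1 to 21.1% in lung, while miR-24 (grey) keeps between 26.2 and 40.3% in all libraries.

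The miRNA next to the a cluster in the annotation, miR-8992, was read at 7.46 normalized counts in the heart of horse 27 and was listed at 0 in the other 11 libraries, where a 0 means that 6 reads were not reached. It did not reach the minimum for testing. Its neighbours miR-23a and miR-27a were read at 3280.1 or more in every library.

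The entries named by sequence that carry a seed of the families were low beside the named members. The entry uUCACAGUgguuaaguuca was read in all 12 libraries, at 719, 1098, 893 and 1028 normalized counts in the hearts of horses 27, 30, 32 and 34, at 1021, 1130.2, 1111 and 1665 in the lungs, and at 272, 463, 284 and 168 in the livers. On the deposited scale its liver values lay below all heart and lung values, while as a share of the known miRNA counts heart (0.00679 to 0.00921%) and liver (0.00303 to 0.00959%) overlapped and lung (0.0215 to 0.0437%) stood above both. It equalled 0.301 to 0.426% of the summed miR-27a and miR-27b counts in heart, 0.400 to 0.784% in liver and 0.601 to 0.924% in lung. The entry aGGCUCAGuucagcaggaag was read between 14.5 and 27.4 in every heart and lung library and at 0, 0, 0 and 7.26 in liver, at most 0.0298% of miR-24. These values are described with no test.

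The pattern of each member over the 12 libraries was set beside those of all other known miRNAs tested, by Pearson's r of log2(normalized count + 1). The 12 points fall into 3 tissues of the same 4 horses and share their size factors, so that r mostly follows the tissue means and depends on the scale: with equal totals, 1 or 2 of the 3 closest miRNAs of each member were the same. On the deposited scale, the closest to miR-23a were miR-3548 (r = 0.98), miR-150 (0.96) and miR-16 (0.91), and for miR-27a miR-3548 (0.93), miR-150 (0.89) and miR-2483 (0.87). For miR-23b they were miR-454 and miR-2483 (0.92 each) and miR-3548 (0.91). miR-24 was closest to miR-486-5p (0.94), miR-454 (0.93) and miR-2483 (0.92), and miR-27b to miR-454 and miR-342-5p (0.96 each) and miR-486-5p (0.95). Among the members, miR-24 ran closest to miR-23b (0.98) and miR-27b (0.96), less close to miR-23a (0.88) and miR-27a (0.84), and the r of miR-27a with miR-27b was 0.73, the lowest of the 10 pairs (0.75 and again the lowest with equal totals).

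After the tissue means were taken off, the deviations of miR-23a and miR-23b still ran together (r = 0.78 over 12 libraries), while those of miR-27a had r between -0.09 and 0.00 with each other member, its cluster partner miR-23a included (-0.06). With equal totals these values were 0.92 and 0.32 to 0.38, so that they depend on the scale shared by all members of a library.

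Endothelial miRNAs were followed beside the members, since the clusters are known from endothelial cells. Of the 3 on the list, 3 were called higher in lung than in liver, where 25.0% of all tested were. The 5 members were called higher there as well. In heart versus liver, 5 of 5 members were called higher in heart as deposited and 2 of 5 with equal totals. Of the endothelial list, 0 were called higher and 2 lower in heart as deposited, beside 51 and 69 of the 256 tested. These were miR-221 and miR-222, with log2 fold changes of -1.89 (adjusted p = 0.000125, limma) and -1.99 (adjusted p = 0.000201, limma). miR-126-5p, from an intron of the endothelial gene EGFL7, had 0.97 there (standard error 0.37, adjusted p = 0.0467) and did not reach the fold minimum; with equal totals it turned to -0.25. Summed over the list, normalized counts ran from 336150.2 to 681325 in lung, from 144408 to 553619.7 in heart and from 114762 to 181135 in liver, with no member at 0 throughout a tissue. Most of each sum was miR-126-5p, at 312538 to 668930.4 in lung, 142420.2 to 551535 in heart and 106849 to 171543 in liver. The sum and the share of the list therefore follow miR-126-5p more than miR-221 and miR-222. In lung versus heart, 2 of 3 on the list were called higher in lung (19.5% of all tested), and 3 of 3 with equal totals (48.4% of all tested). As a share of the known miRNA counts, the list took 1.43 to 3.66% in heart, 2.64 to 3.27% in liver and 8.21 to 13.5% in lung. The part of endothelial cells in the levels of the members was not tested.

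Of the smooth muscle and mesenchymal list, 4 of 5 miRNAs were measured, and on the deposited scale miR-143 was called higher than in liver both in heart (log2 fold change 1.25, adjusted p = 0.00661, limma) and in lung (1.01, adjusted p = 0.0200), while the other 3 were not called in any comparison. With equal totals the change of miR-143 in heart versus liver was 0.04 (adjusted p = 0.919) and that in lung versus liver 1.18 (adjusted p = 0.00477). In lung versus heart, 2 of 4 on the list were then called higher in lung, beside 48.4% of all tested. Its sum ran from 361147 to 454021 in heart, from 266744 to 396395 in lung and from 167164 to 302441 in liver, but as a share of the known miRNA counts it took 2.63 to 4.39% in heart, below the 6.18 to 7.94% of lung and overlapping the 3.55 to 6.20% of liver. Of the leukocyte list, 4 of 6 were measured, and 3 were called higher in lung than in liver (25.0% of all tested) and 3 higher in lung than in heart (19.5%). With equal totals both counts were the same, beside 27.0% and 48.4% of all tested. In heart versus liver, 1 on the list was called higher and 1 lower in heart (51 and 69 of the 256 tested), and 0 and 2 with equal totals (26 and 138). Its sum was 29537 to 88114 in lung, 7926 to 9759 in heart and 12200.3 to 21542 in liver. The part of either cell group in the members' values was not tested.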

How the data were processed

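Small RNA libraries of heart, lung and liver from 4 horses were used, grouped by the tissue in the labels. By the study's methods, libraries were made with the NEBNext small RNA kit, and reads were counted against miRBase with sRNAbench at a minimum read count of 6, whereas the submitters' processing notes name Trimmomatic and BWA. The deposited values are a signal: counts that the authors divided by DESeq2 size factors. The table's own fold changes and p-values of the authors were not used.

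Of the known miRNAs, the 256 that reached a normalized count of 10 in 4 or more of the 12 libraries were tested on log2(value + 1) with limma 3.58.1 (R 4.3.3), with a mean per tissue over all 12 libraries. Fold changes are on that scale. P-values were adjusted over all 256 after Benjamini and Hochberg, and a miRNA was called when its adjusted p was below 0.05 and its fold change reached 1 on the log2 scale. Log2 ratios were compared with exact two-sided permutation tests. Scripts were tested on simulated data. TMM factors were computed from their definition. The 3 closest miRNAs by r were named for each member. The members and lists were chosen with earlier results of these data known. Same-numbered samples come from the same horse. Their deviations from the tissue means correlated between -0.27 and 0.15, over 0.1 in 3 of 12 pairs. Mature sequences of the named members were not used here.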

Additional observations from a re-analysis of the deposited data

Results flagged for a closer look

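The entries named by sequence lie outside the tests, and 4 of them carry a seed of the families at bases 2 to 8 and were read above 0. The entry uUCACAGUgguuaaguuca reached 1665 normalized counts in the lung of horse 34. The entry cUCACAGUggcuagguucuga reached 162 in the heart of horse 30 and was read in 3 hearts, 2 lungs and 0 livers. The entry aUCACAGUggcuaaguaa reached 42.1 in the lung of horse 32, and was read in 1 heart and 1 lung only. The entry aGGCUCAGuucagcaggaag reached 27.4 in the heart of horse 27. Of the 27 groups of 4 values checked (5 members and 4 ratios in 3 tissues), 0 held a value far from its group by Dixon's test, where chance gives about 1 in 20.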

How the results depend on the processing

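With equal totals (CPM), 2 of 5 members were called in heart versus liver and 4 of 5 in lung versus heart, where miR-24 turned to 1.16 and miR-27b to 0.64 on the log2 scale. TMM gave 1 call in lung versus heart, and no fold minimum gave 3. Leaving out a horse or a library gave 0 to 1 calls there and 5 in both comparisons with liver, and put miR-23b between -0.09 and 0.10 in lung versus heart, which crosses 0. The other pseudocounts and filters changed no count of calls. With the horse as a replicate block, 5, 5 and 0 members were called, as without it, and the block changed no call of a member or of the endothelial, smooth muscle and leukocyte lists; over all 256 miRNAs it gave 48, 63 and 48 calls higher in the tissue named first, against 51, 64 and 50. Lung versus heart of miR-27a then had an adjusted p of 0.0256 (limma). The 12 differences in log2 ratio kept their printed values with pseudocounts of 0.5 and 10. That none passed the threshold there carries little weight. The smallest p the permutation allows sets a floor, and too few tests reached it to pass the adjustment. Leaving out a horse moved each difference by less than the larger SD of the tissues compared. Some moved by about the standard error of the difference or more, and some by more than the smaller SD. In lung versus liver, miR-27b over miR-27a ran from -0.75 to -0.26, miR-27a over miR-23a from -0.56 to -0.06 and miR-27b over miR-23b from -0.47 to -0.20. In heart versus liver, miR-27a over miR-23a ran from -0.54 to -0.16. The sign changed only for miR-27a over miR-23a in lung versus heart (-0.20 to 0.10). With 3 horses a permutation test cannot reach the threshold, so no test was run. The count tests planned on recovered reads were not run: the reads given here rest on the authors' minimum read count as the lowest value, which the table itself does not show. Applying the scalings to the cell type lists and to r was chosen after seeing the data, and summing miR-24 entries was void with 1 entry. The liver library of horse 27 was the shallowest, with 3066869 reads.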
